A study of Mus musculus with 12 samples.

Results

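CD8 T cells of the neonatal mouse liver were taken as single cells that carried CD3 and CD8 transcripts and no defining transcript of another lineage. A droplet barcode with 500 to 50000 unique molecular identifiers (UMIs, one per captured RNA molecule) and at most 20% mitochondrial UMIs was a member if it held at least 2 UMIs of Cd3e, Cd3d and Cd3g together and at least 1 UMI of Cd8a or Cd8b1. It also had to hold no UMI of Cd4, of the NK receptor genes Ncr1 and Klrb1c, or of Cd79a, Lyz2, C1qa, Stab2 and Siglech, which mark B cells, myeloid cells, macrophages, sinusoidal endothelium and plasmacytoid dendritic cells, and at most 1 UMI of the cell division genes Top2a and Mki67. This rule found 1616 cells, 0.798% of the 202557 kept cells, with 826 from control and 790 from anemic livers and 78 to 196 per mouse. The genes of the rule were fixed by it, so their presence or absence in the members is not a result. Of the members, 228 held exactly 2 CD3 UMIs and 801 exactly 1 CD8 UMI, while 174 cells failed only by holding 1 CD3 UMI and 5072 only by holding no CD8 UMI.

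All mice were C57BL/6J pups without a transgene. In the phlebotomy-induced anemia (PIA) group, 20 µL of blood per g of body weight was drawn repeatedly from the facial vein between postnatal day (P) 2 and P10, and the control pups were handled alike with a daily needle stick that drew no blood. Livers were collected on P11, and each of the 12 libraries held the dissociated liver of 1 mouse, 6 per group, so the replicates are separate animals, all of 1 labelled batch. By Xist and Y-linked transcripts, control mice 1 and 2 and anemia mice 1, 3, 5 and 6 were male and the others female, and the sexes were thus unequal in number in the 2 groups.

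CD8 T cells recognise peptides on MHC class I, and conventional ones carry CD8 as a pair of an alpha chain, encoded by Cd8a, and a beta chain, encoded by Cd8b1. T cells with innate features, many gamma-delta T cells among them, can carry CD8 as 2 alpha chains instead and often hold NK receptors and ready-made granzymes. Naive T cells are known for the homing receptor encoded by Ccr7 and the factor Lef1, whereas effector cells make granzymes and chemokines such as Ccl5. In the first weeks of life the mouse liver is still a blood-forming organ, and its lymphocytes lie among erythroid cells and hepatocytes.

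Each library held 46252146 to 74545930 UMIs, and the members of a mouse summed to 204233 to 659559. Members were deeper in anemia, with a median of 1904 to 2314 UMIs per cell in control mice and 2395.5 to 3077 in anemic mice (exact two-sided Mann-Whitney test, p = 0.00216, the smallest p that 6 against 6 mice allow), and the groups did not overlap. Shares of members with a given transcript were therefore computed after each cell was thinned to 1000 UMIs, which left out 12 control and 4 anemia members that were shallower. No barcode sequence was that of a member in more than 1 library, but members were not compared with the other barcodes of other libraries. Among all 207537 barcodes, 4.89% had a sequence found in more than 1 library. Anemia mouse 2 stood apart from the other mice in the share and depth of its members, and values without it are given beside several shares and lists.

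The T cell part of the label was borne out by genes the rule did not use, although the members were not of 1 kind. Themis, which encodes a signalling protein of the T cell receptor (TCR) pathway, was at 247 to 581 UMIs per 1000000 of all UMIs in the members of a mouse, against a mean of 10.4 ± 24.3 (SD, n = 12 mice) in NK cells (1596 cells with Ncr1 or Klrb1c and no CD3) and 0.479 ± 0.495 in B cells. Trac, the constant gene of the TCR alpha chain, was at 275 to 541 in the members. Of markers of other lymphocytes outside the rule, the B cell gene Ms4a1 averaged 1.13 ± 2.99 and Foxp3 of regulatory T cells 0.893 ± 1.79 on the same scale. Other B cell transcripts were present, with Ighm at 114 ± 51.0 and Cd74 at 155 ± 203 in the members, against 3023 ± 719 and 14407 ± 3204 in B cells. RNA abundant in the surrounding tissue was present, with Alb of hepatocytes at 1085 ± 528 and Hbb-bs of erythroid cells at 8384 ± 7070 on that scale.

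Cd8b1 was found in 833 of the 1616 members and not in the other 783, and these 2 kinds of member carried different programmes. The 2 kinds had a median of 2417 and 2224 UMIs per cell. Detection limits the split, since 480 of the 833 held just 1 Cd8b1 UMI and some cells counted as lacking it will hold the transcript undetected. All differences between the kinds are descriptions of cells split on one of their own genes and were not tested. Levels are UMIs per 1000000 of all UMIs in the kind's cells of a mouse, as mean ± SD over 12 mice.

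Members with Cd8b1 held the naive genes. Ccr7, the receptor for lymph node entry, was at 267 ± 53.5 in members with Cd8b1 and 46.7 ± 32.2 in those without. Lef1, a factor of naive T cells, was at 1224 ± 276 against 403 ± 245, and the chromatin organiser Satb1 at 2494 ± 347 against 883 ± 501. In each of the 12 mice, all 3 of these genes and Themis were lower in the members without Cd8b1. In the CD4 T cells of the same livers, 329 cells gated with Cd4 in place of CD8, Lef1 was at 1263 ± 364 and Satb1 at 2555 ± 616, near the members with Cd8b1.

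Members without Cd8b1 held cytotoxic, NK receptor and gamma-delta TCR genes. Gzmb, which encodes granzyme B, was at 1591 ± 297 in members without Cd8b1 and 35.8 ± 46.8 in those with it, and Ccl5, a chemokine of effector cells, was detected in 84.9% and 43.3% of them. Fcer1g and Tyrobp, which encode the signalling adaptors of NK receptors, were at 1092 ± 348 and 871 ± 290 without Cd8b1 and at 44.3 ± 23.1 and 40.4 ± 26.9 with it. The NK cells, whose Ncr1 or Klrb1c the members lack by rule, held Fcer1g at 1200 ± 181 and Gzmb at 608 ± 141. Klra5 and Klra9, of the Ly49 receptor family, were at 372 ± 173 and 93.9 ± 56.7 without Cd8b1 and at 7.87 ± 9.16 and 0.487 ± 1.69 with it. The Ly49 genes are near copies of one another, so the reads of single Klra genes may be split or lost in counting. Eomes, a factor of memory CD8 T cells and NK cells, ran the other way, at 35.4 ± 16.7 with Cd8b1 and 11.1 ± 7.88 without.

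**Figure D1:**
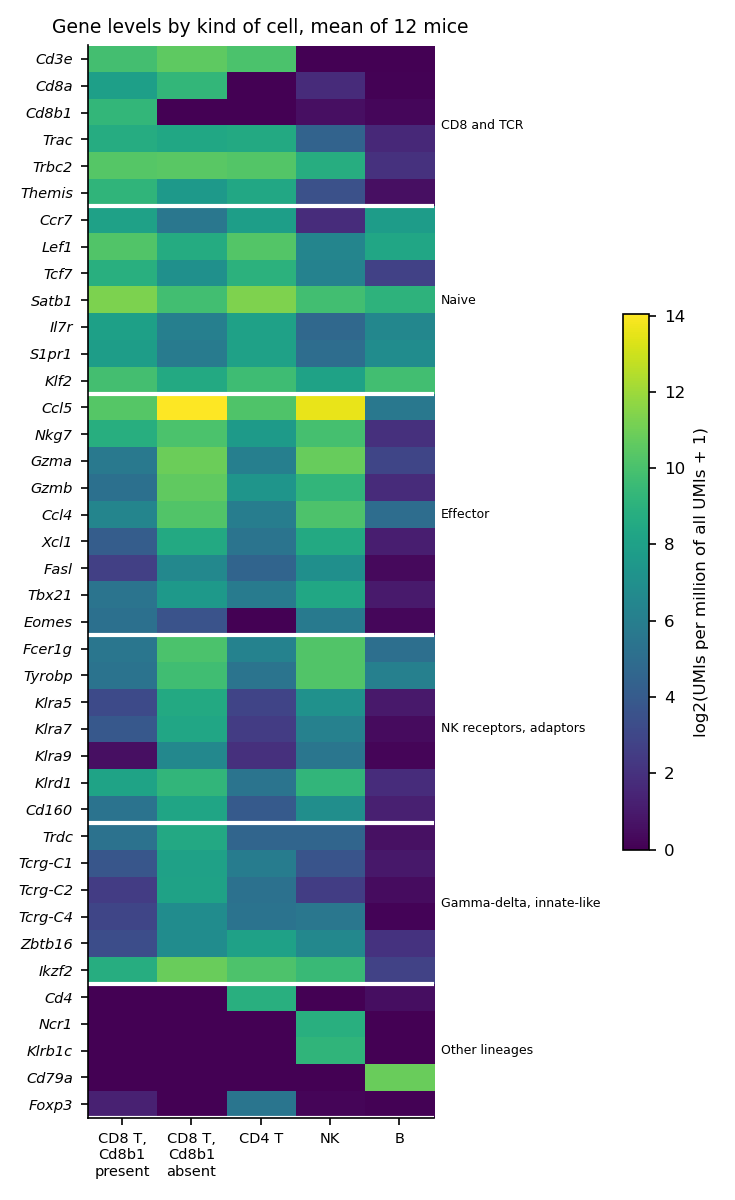
Mean level over 12 mice, as log2 of UMIs per 1000000 plus 1, of 40 genes in CD8 T cells with (present) and without (absent) a Cd8b1 UMI, CD4 T cells, NK cells and B cells. The column of CD8 T cells without Cd8b1 resembles the NK cell column in Ccl5, Gzma, Fcer1g and Tyrobp but holds Trac and Trdc, and the column with Cd8b1 resembles CD4 T cells in Lef1, Tcf7 and Satb1. CD3 UMIs were required of the members and excluded from the NK cells, so the contrast in Cd3e was fixed by the gates.

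Gamma-delta TCR transcripts made up a part of the second kind. Trdc, the constant gene of the TCR delta chain, was found at full depth in 231 of the 783 members without Cd8b1 (29.5%) and in 23 of the 833 with it (2.76%). It was found in 7 of 14429 B cells thinned to 1000 UMIs (0.0485%), whose median depth was 1310 to 1801 UMIs before thinning. The B cell value is thus at a lower depth than the counts of members. Tcrg-C1 and Tcrg-C2, constant genes of the gamma chain, were at 267 ± 89.7 and 273 ± 112 without Cd8b1 and at 12.4 ± 12.7 and 4.69 ± 6.34 with it. Zbtb16, which encodes the factor PLZF of innate-like T cells, was at 112 ± 46.1 against 9.15 ± 10.2. The members without Cd8b1 were not all gamma-delta cells by transcript, since those with neither Cd8b1 nor Trdc still held Trac at 433 ± 73.5 and Gzmb at 1347 ± 372. The members called CD8 T cells here thus held naive genes at higher levels in one kind. The effector, NK receptor and gamma-delta genes named here, apart from Eomes, were higher in the other. The split was not clean. Among cells thinned to 1000 UMIs, 28.5% of members with Cd8b1 and 80.1% of those without held at least 2 UMIs of Ccl5 and Nkg7.

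The first comparison asked whether PIA changed how many CD8 T cells the liver held and of which kind. CD8 T cells were 0.690% to 1.08% of kept cells in control mice (median 0.833%) and 0.502% to 1.11% in anemic mice (median 0.670%), and the groups overlapped. The mean was 0.860% ± 0.169 (SD, n = 6) in control and 0.732% ± 0.244 (n = 6) in anemia (exact two-sided Mann-Whitney test, p = 0.310, adjusted p = 0.433 by Benjamini-Hochberg over the 7 shares tested). The means ran in opposite directions in females and males. In females the share was 0.690% to 0.926% in 4 control and 0.633% to 1.11% in 2 anemic mice, with means of 0.766% and 0.871%, and in males 1.01% to 1.08% in 2 control and 0.502% to 0.933% in 4 anemic mice, with means of 1.05% and 0.662% and no overlap. The 2 anemic females were mouse 2 at 1.11% and mouse 4 at 0.633%, so their higher mean rested on mouse 2. No test was run within a sex. Among cells with under 10% globin UMIs, CD8 T cells were 0.920% ± 0.188 in control and 0.917% ± 0.230 in anemia (exact p = 0.937, adjusted p = 0.937), with means of 0.810% and 1.01% in females and 1.14% and 0.870% in males. The anemic females were there at 1.20% (mouse 2) and 0.828% (mouse 4). A share of kept cells also moves with how many erythroid and other cells a library holds. Both shares were gated at full depth, where anemic members were deeper. The gate was also applied to kept cells of at least 1000 UMIs thinned to 1000, without a test here. Control mice 1 to 6 gave 94, 96, 88, 67, 67 and 76 CD8 T cells among 12890, 14942, 11750, 13319, 13740 and 14754 such cells. Anemic mice 1 to 6 gave 67, 83, 109, 43, 54 and 40 among 13943, 15537, 17222, 16427, 14045 and 12725.

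All gated T cells, which are cells that pass the rule without its conditions on Cd8a, Cd8b1 and Cd4, were 3.24% to 4.95% of kept cells in control and 2.19% to 3.37% in anemia (exact two-sided Mann-Whitney test, p = 0.00433, not adjusted), with 5 of 6 anemic mice below every control. Of these T cells, CD8 T cells were 18.3% to 21.9% in control (median 20.99%) and 21.4% to 39.6% in anemia (median 22.9%). The mean share was 20.5% ± 1.39 against 26.0% ± 7.02, and the 4 highest anemic mice exceeded all controls (exact p = 0.00866, adjusted p = 0.0606 over the 7 shares). Anemia mouse 2 gave the 39.6%. The means differed by 5.58 percentage points with it and 2.86 without it, and the adjusted exact p was 0.0303 to 0.121 when 1 mouse was left out, with 0.0303 without control mouse 2 the only value to pass. When the gate was applied to cells thinned to 1000 UMIs, the difference was 1.55 points (exact p = 0.180). Of the 7026 gated T cells of both groups, 5072 held neither a CD8 nor a Cd4 UMI. Control and anemia gave 4026 and 3000 gated T cells, 826 and 790 CD8 T cells and 163 and 166 CD4 T cells.

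Cells with effector transcripts took a smaller share of the members in most anemic livers. Members with at least 2 UMIs of Ccl5 and Nkg7 among 1000 were 54.9% to 67.3% of the members in control mice (median 58.1%) and 34.5% to 61.5% in anemic mice (median 44.6%), with 5 of the 6 under the lowest control. The means were 59.7% ± 4.57 and 45.3% ± 10.7 (exact two-sided Mann-Whitney test, p = 0.0260, adjusted p = 0.0909 over the 7 shares), so this difference did not pass the threshold. Anemia mouse 3 was the high one at 61.5%. The adjusted exact p was 0.0303 to 0.182 when 1 mouse was left out, and the 0.0303, without anemia mouse 3, was the only one to pass. Without thinning the means were 69.5% ± 4.58 and 64.8% ± 12.7 (exact p = 0.818). In B cells thinned to 1000 UMIs, 0.194% passed this gate, which sets the background for the thinned shares. Trdc was found in 12.7% ± 2.81 and 9.32% ± 3.52 of members after thinning (exact p = 0.180, adjusted p = 0.314).

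The rule chose the members by Cd8a and Cd8b1, so the measures of these genes are a description with no test. The share of members with a Cd8b1 UMI was 24.5% ± 4.48 in control and 29.9% ± 5.14 in anemia after thinning. At full depth, where anemic members were deeper, it was 37.0% to 50.4% and 49.5% to 73.5%. After this difference had been seen, 4 further measures of the same genes were added.

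Cd8b1 UMIs as a share of all Cd8a and Cd8b1 UMIs of the members were 31.4%, 34.8%, 38.1%, 46.2%, 41.0% and 35.3% in control mice 1 to 6 and 43.8%, 52.7%, 42.7%, 53.3%, 54.8% and 51.0% in anemic mice 1 to 6. The means were 37.8% ± 5.24 and 49.7% ± 5.17, and control mouse 4 alone reached the anemic range. With the gate itself applied to thinned cells, 33.9% ± 6.30 of control and 46.0% ± 6.80 of anemic members held Cd8b1. Members without Cd8b1 were 0.490% ± 0.130 of kept cells in control and 0.285% ± 0.113 in anemia, with 5 of 6 anemic mice below every control. Members with Cd8b1 were 0.369% ± 0.0595 and 0.446% ± 0.189, and that mean without anemia mouse 2 differed from control by 0.00333 percentage points. Both of these shares of kept cells were counted at full depth, where anemic members were deeper. Gated after thinning, members with Cd8b1 numbered 27, 27, 38, 26, 24 and 22 in control mice 1 to 6. They numbered 30, 46, 41, 20, 28 and 16 in anemic mice 1 to 6, among the thinned cells counted above.

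In females, the Cd8b1 share of CD8 UMIs was 35.3% to 46.2% in the 4 control mice and 52.7% to 53.3% in the 2 anemic mice. In males it was 31.4% to 34.8% in the 2 control mice and 42.7% to 54.8% in the 4 anemic mice.

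**Figure D2:**
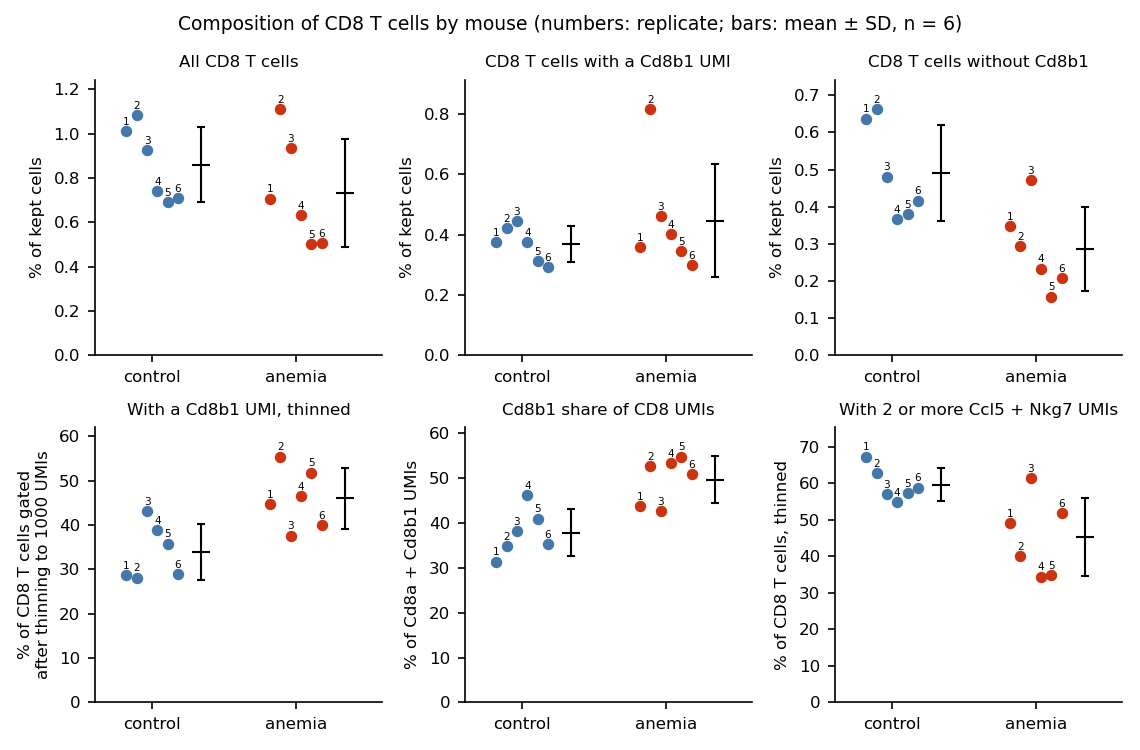
Each point is 1 mouse, numbered by replicate, with the mean ± SD of 6 mice beside each group, in percent of kept cells (top row), of members or of CD8 UMIs (bottom row). Members without Cd8b1 were under every control in 5 of 6 anemic mice. Members with Cd8b1 were above every control in anemia mice 2 (0.815%) and 3 (0.462%) and overlapped in the others. The top row was counted at full depth, where anemic members were deeper.

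The second comparison asked which genes differed in CD8 T cells between anemic and control livers. UMIs of the members were summed per mouse and the 7007 genes that averaged 5 or more UMIs a mouse entered edgeR's quasi-likelihood test, ribosomal and mitochondrial genes left out. Levels in this comparison are UMIs per 1000000 UMIs of the tested genes (CPM) after TMM scaling, and fold changes are log2, anemia over control. In such sums, fewer cells of one kind and less RNA per cell cannot be told apart. At an adjusted p under 0.05, 10 of the 7007 genes changed, which is 0.143% of those tested, with 3 higher (0.0428%) and 7 lower (0.0999%). The groups did not overlap for 29 genes (0.414%), 6 of them among the 10 (0.0856% of all tested), and 9.56% of genes had an unadjusted p under 0.05.

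Of the 7 genes that fell, Fasl, Klra9, Farp1 and B3galt5 were each detected in under 3% of the members with Cd8b1. Fasl, which encodes the death ligand of cytotoxic cells (chr1:161780689-161788495, mm10, minus strand), was at 67.0 to 117 CPM in control mice (median 94.4) and 11.8 to 56.3 in anemic mice (median 39.2), without overlap. It changed by -1.41 ± 0.30 (SE; edgeR, adjusted p = 0.0495). Klra9, an inhibitory Ly49 receptor (chr6:130178675-130193112, minus strand), was at 36.1 to 154 CPM in control and 8.18 to 56.3 in anemia, overlapping at control mouse 4, and changed by -1.88 ± 0.35 (edgeR, adjusted p = 0.0196). Farp1, which encodes an exchange factor of small GTPases (chr14:121035200-121283744, plus strand), was at 67.0 to 148 CPM in control and 37.5 to 56.9 in anemia, without overlap, and changed by -1.24 ± 0.21 (edgeR, adjusted p = 0.0115). B3galt5, a galactosyltransferase gene that the rule for naming genes did not pick and that is named here as one of the 10, was at 45.8 to 83.4 and 5.66 to 48.3 CPM, overlapping at anemia mouse 1, and changed by -1.56 ± 0.32 (edgeR, adjusted p = 0.0426).

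The share of members with a UMI of these genes followed the split by Cd8b1. Fasl was detected in 19.8% of members without Cd8b1 and 1.32% of those with it, Klra9 in 13.5% and 0.120%, Farp1 in 19.4% and 2.16%, and B3galt5 in 13.4% and 0.360%. Within the members without Cd8b1, Fasl changed by -1.11 (edgeR, adjusted p = 0.134) and Farp1 by -0.98 (edgeR, adjusted p = 0.130), and neither passed the threshold there. Whether the fall in the sum came from fewer such cells or from less RNA in each was not tested.

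Nr4a2 and Hps4 also fell. Nr4a2 encodes an orphan nuclear receptor that is induced within minutes to hours of TCR signalling. It lies at chr2:57106830-57124003 on the minus strand and was at 769 to 1344 CPM in control (median 969) and 309 to 715 in anemia (median 533), without overlap, a change of -0.96 ± 0.19 (edgeR, adjusted p = 0.0241). It was detected in 72.2% of members without Cd8b1 and 31.7% of those with it. Its relatives, named after their values were seen, did not pass. Nr4a1 changed by -0.50 ± 0.21 (edgeR, adjusted p = 0.406) and Nr4a3 by -0.67 ± 0.16 (edgeR, adjusted p = 0.0830). Hps4, which encodes a subunit of a complex for lysosome-related organelles (chr5:112343083-112378414, plus strand), was at 41.2 to 82.2 CPM in control and 0 to 27.5 in anemia, without overlap, and changed by -1.62 ± 0.31 (edgeR, adjusted p = 0.0241).

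The promoter of Nr4a2 is shown because the gene was the most abundant of those that changed and its family is known to answer to cAMP response element binding factors. In the RefSeq promoter (GRCm38.p6, chr2:57123954-57124253, minus strand, 250 bases before to 50 after the gene's start), the core TGACG of their response element, searched on both strands, is in capitals.
Nr4a2: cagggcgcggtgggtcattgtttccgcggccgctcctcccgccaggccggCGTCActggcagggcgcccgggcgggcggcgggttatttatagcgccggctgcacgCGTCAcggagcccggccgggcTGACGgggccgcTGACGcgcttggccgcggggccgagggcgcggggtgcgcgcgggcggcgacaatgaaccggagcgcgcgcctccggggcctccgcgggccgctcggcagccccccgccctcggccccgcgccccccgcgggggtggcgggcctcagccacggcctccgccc
It holds 4 matches, and 0.231% of the 32851 promoters of the same length hold at least 4, while 20.8% hold at least 1. A match is a description of letters and not a bound site.

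The remaining 4 changed genes moved alike in B cells of the same livers. Cyp2e1, a hepatocyte gene that encodes a cytochrome P450 (chr7:140763739-140774987, plus strand), was at 41.2 to 167 CPM in control members (median 73.4) and 1.97 to 25.0 in anemic members (median 9.78), without overlap. It changed by -3.14 ± 0.45 (edgeR, adjusted p = 0.00192) in CD8 T cells and by -2.37 ± 0.27 (edgeR, adjusted p = 0.000258) in B cells. Apoc3, an apolipoprotein gene of hepatocytes (chr9:46232933-46235636, minus strand), was at 32.0 to 105 and 81.3 to 258 CPM, with overlap through control mouse 5, and rose by 1.57 ± 0.31 (edgeR, adjusted p = 0.0306), and by 1.64 ± 0.30 (edgeR, adjusted p = 0.0142) in B cells. When the members with the highest doublet scores were left out, Apoc3 changed by 0.44 in CD8 T cells (edgeR, adjusted p = 0.816) and no longer passed. Gm10076, annotated as a long noncoding RNA (chr14:105681828-105682211, plus strand), was at 108 to 198 and 215 to 407 CPM, without overlap, and rose by 0.98 ± 0.18 (edgeR, adjusted p = 0.0196), and by 0.86 ± 0.11 (edgeR, adjusted p = 0.00122) in B cells. Farp1, Hps4 and Nr4a2 changed by -0.01, 0.04 and -0.19 in B cells, with adjusted p of 0.704 to 0.997 by edgeR. In the B cells 1.08% of 11991 genes passed the threshold.

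Mt1, which encodes the metal-binding protein metallothionein and is expressed by hepatocytes as well as many other cells, had the largest rise of the 3 genes that rose. It lies at chr8:94179082-94180327 on the plus strand and was at 9.15 to 37.7 CPM in control members (median 13.8) and 37.5 to 216 in anemic members (median 86.4), and the groups met at control mouse 2. The change was 2.53 ± 0.43 (edgeR, adjusted p = 0.0115), and it was 2.51 ± 0.28 (edgeR, adjusted p = 0.000258) in B cells. Its promoter is printed because metallothionein genes are known to be switched on through metal response elements. In the RefSeq sequence (GRCm38.p6, chr8:94178839-94179138, plus strand, 250 bases before to 50 after the start), the element's core, searched as TGCGCNC and TGCACNC on both strands, is in capitals.
Mt1: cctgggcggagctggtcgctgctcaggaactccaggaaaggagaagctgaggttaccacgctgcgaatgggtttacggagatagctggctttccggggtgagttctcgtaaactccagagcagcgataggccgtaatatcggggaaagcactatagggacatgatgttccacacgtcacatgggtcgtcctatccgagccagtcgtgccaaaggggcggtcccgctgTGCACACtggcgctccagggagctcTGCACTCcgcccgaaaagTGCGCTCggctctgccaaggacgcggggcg
It holds 3 matches, all close to the gene's start, and 1.97% of promoters hold at least 3, while 25.7% hold at least 1.

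**Figure D3:**
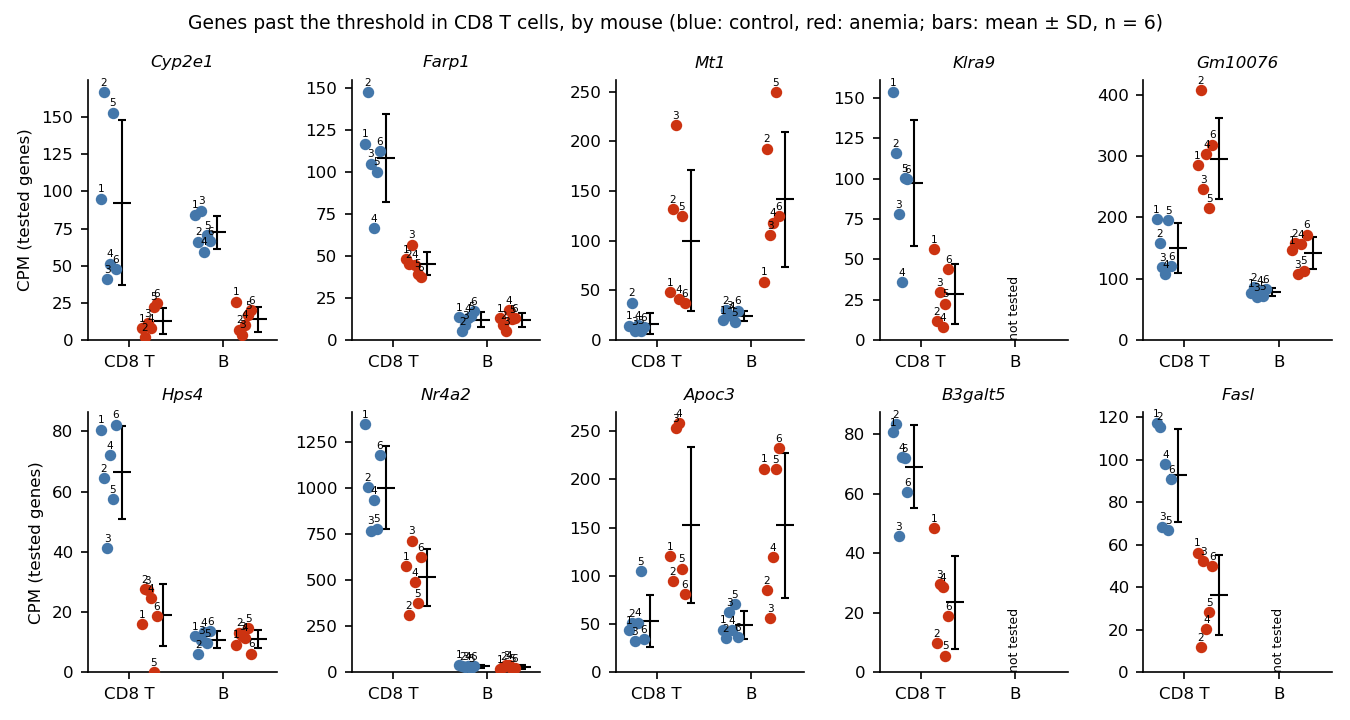
CPM of the 10 genes past the threshold, 1 panel each, in CD8 T cells and B cells of the same mice, with points numbered by replicate and the mean ± SD of 6 mice per group. Cyp2e1, Mt1, Gm10076 and Apoc3 moved alike in B cells, Farp1, Hps4 and Nr4a2 were low there in both groups, and Klra9, B3galt5 and Fasl were too rare in B cells to be tested.

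How many genes passed depended on single mice. Left out 1 at a time, control mice 1, 2 and 6 gave 4, 2 and 4 genes and anemia mice 1, 3, 4 and 6 gave 24, 40, 16 and 6, and without anemia mouse 2 there were 11. Cyp2e1 and Mt1 passed without any 1 mouse, and Farp1 without any but control mouse 2 (edgeR, adjusted p = 0.0658). Klra9 was lost without control mouse 1, 2 or 6, Gm10076 without control mouse 2, 3 or 6 or anemia mouse 6, Hps4 without control mouse 1, 2 or 6 or anemia mouse 6, and Nr4a2 without control mouse 1, 2 or 6 or anemia mouse 5. Apoc3 was lost without control mouse 1, 2, 3, 4 or 6 or anemia mouse 4, and Fasl without any but control mouse 5 or anemia mouse 1 or 3. B3galt5 passed only without control mouse 3 or anemia mouse 1, 3 or 4. The highest adjusted p among these fits was 0.131 for Klra9 and Hps4, 0.0658 for Gm10076, 0.140 for Nr4a2 and Apoc3, 0.173 for B3galt5 and 0.217 for Fasl (edgeR). With Y-linked expression as a covariate for sex 45 genes passed, the 10 included.

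Genes were also set against the split by Cd8b1. Among 3359 tested genes with over 100 UMIs per 1000000 summed over both kinds, 65 were at least 4 times higher in members without Cd8b1, and 64 of these had a negative fold change in anemia, with a median of -0.81. Of the 87 genes at least 2 times higher with Cd8b1, 82 had a positive fold change, with a median of 0.38. The median was 0.01 for the 3100 genes within 2 times. Over all 3359 genes the 2 quantities had a Pearson r of -0.59, as a description across genes that share the same 12 libraries. The exception among the 65 was Gzma (granzyme A), at 577 to 1436 CPM in control and 340 to 3155 in anemia, with a change of 0.41 ± 0.35 (edgeR, adjusted p = 0.778). In the fit of members with Cd8b1 alone, 27 of the 65 genes could be tested and their median was 0.07, and in the fit of members without Cd8b1 the median of all 65 was -0.52.

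**Figure D4:**
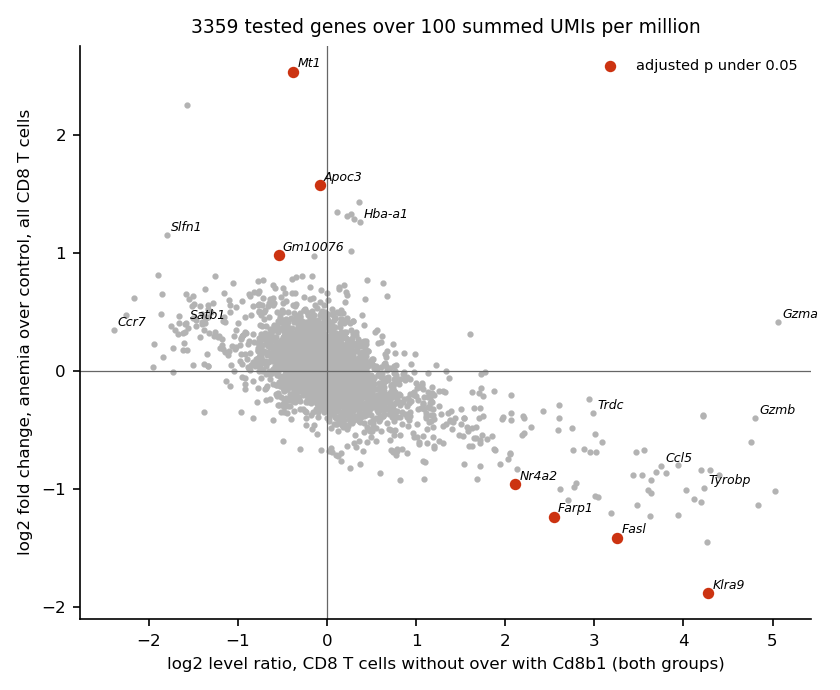
Each point is 1 of 3359 genes, with the log2 ratio of its level in members without over members with Cd8b1 on the x axis and its log2 fold change in anemia over all members on the y axis, and red points mark 7 genes past the threshold. Genes of the members without Cd8b1, on the right, lie mostly under 0, with Gzma above it.

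Gene lists of T cell functions were described by their counts beside all tested genes, of which 54.4% had a positive fold change and whose median was 0.03. Of 26 tested memory and effector genes 20 were negative, with a median of -0.31, and 1 (Fasl) passed the threshold. An unadjusted p under 0.05 was reached by 9 of them in the lower direction and none in the higher, against 4.81% of all genes lower, and the median was -0.54 to -0.24 leaving out 1 mouse. Ccl5 was at 11725 to 17832 CPM in control and 2367 to 12345 in anemia, a change of -0.81 ± 0.26 (edgeR, adjusted p = 0.227). Of 19 naive and quiescent genes 17 were positive, with a median of 0.23 and 8 at an unadjusted p under 0.05, all higher, against 4.75% of all genes higher, and none passed. The median was 0.15 to 0.34 leaving out 1 mouse. Satb1 was at 1432 to 2216 and 1764 to 3589 CPM and changed by 0.40 ± 0.16 (edgeR, adjusted p = 0.368).

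Within the members with Cd8b1, 9 of the 19 naive genes were positive, with a median of -0.01, and within those without Cd8b1 14 of 18 were, with a median of 0.62. Of all genes tested in these fits, 51.1% and 51.9% were positive. The memory and effector list had a median of 0.20 over 17 genes with Cd8b1 and -0.31 over 23 without.

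NK receptor, gamma-delta and innate-like genes were described by 4 lists, in which Klra9 alone passed. Of 7 NK cell genes tested 5 were negative, with a median of -0.86 (-1.09 to -0.68 leaving out 1 mouse), and all 5 had an unadjusted p under 0.05, against 4.81% of all genes lower. Tyrobp was at 618 to 1003 CPM in control and 155 to 592 in anemia, without overlap, a change of -0.99 ± 0.22 (edgeR, adjusted p = 0.0685). Of 6 gamma-delta genes 5 were negative, with a median of -0.48 (-0.63 to -0.34 leaving out 1 mouse). Tcrg-C1 was at 139 to 381 and 64.9 to 162 CPM and changed by -1.01 ± 0.23 (edgeR, adjusted p = 0.0685), and Trdc at 201 to 389 and 108 to 331, a change of -0.36 ± 0.21 (edgeR, adjusted p = 0.629). Ikzf2, which encodes the factor Helios, was at 1327 to 1974 and 647 to 1707 CPM, a change of -0.54 ± 0.18 (edgeR, adjusted p = 0.277). Of 9 inhibitory receptor and exhaustion genes 6 were negative, with a median of -0.45 (-0.57 to -0.28 leaving out 1 mouse), Cd160 among them at -0.67 ± 0.23 (edgeR, adjusted p = 0.293). Among 6 genes of regulatory and unconventional T cells 4 were negative, with a median of -0.37 (-0.55 to -0.30 leaving out 1 mouse), and Tnfrsf9, the costimulatory receptor 4-1BB, changed by -0.67 ± 0.19 (edgeR, adjusted p = 0.184). At an unadjusted p under 0.05, 2 gamma-delta genes were lower and 1 higher. The inhibitory and the regulatory list each had 3 lower and 1 higher, against 4.81% and 4.75% of all genes.

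None of the genes of hypoxia and glycolysis passed the threshold. Of 25 tested 22 were positive, with a median of 0.44, and 11 had an unadjusted p under 0.05, all higher, against 4.75% of all genes higher. The glycolytic enzyme genes Aldoa and Gapdh changed by 0.60 ± 0.25 and 0.44 ± 0.20 (edgeR, adjusted p = 0.403 and 0.472), and Eno1, which the naming rule did not pick, was at 211 to 485 and 286 to 862 CPM. Anemia mouse 2 had the highest sum of the list, 9411 UMIs per 1000000 of all UMIs against 3943 to 7221 in the other anemic mice and 3513 to 5800 in control. The groups overlapped, and without anemia mouse 2 the median of the list was 0.25. In B cells the sum was 2737 to 3402 in control and 3179 to 3750 in anemia.

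Interferon response genes depended on 1 mouse. Of 30 tested 27 were positive, with a median of 0.40, and 8 had an unadjusted p under 0.05, all higher, against 4.75% of all genes higher. Anemia mouse 2 held 5821 UMIs of the list per 1000000 UMIs against 2122 to 3435 in the other anemic mice and 2516 to 3382 in control, and without it the median was 0.01, the lowest of the values of up to 0.55 from leaving out 1 mouse. Slfn1, named after its values were seen, was at 21.97 to 56.7 CPM in control and 56.3 to 134 in anemia and changed by 1.15 ± 0.25 (edgeR, adjusted p = 0.0685).

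The other T cell lists are given by their medians. These were 0.08 over 25 TCR and signalling genes, 0.04 over 18 cytokine receptors, -0.00 over 18 homing receptors and integrins, 0.06 over 18 MHC class I genes, 0.19 over 11 iron genes, -0.14 over 9 BCL2 family genes and -0.05 over 8 cholesterol genes, and none of these genes passed. Bcl2, the survival factor of naive T cells, was at 439 to 713 CPM in control and 678 to 1002 in anemia, a change of 0.50 ± 0.14 (edgeR, adjusted p = 0.183). The ferritin genes Fth1 and Ftl1 changed by 0.04 ± 0.13 and -0.06 ± 0.13 (edgeR, adjusted p = 0.971 and 0.955). Immediate early and heat shock genes had a median of -0.20, with 19 of 25 negative and 7 lower and 2 higher at an unadjusted p under 0.05, against 4.81% and 4.75% of all genes, and the glucocorticoid list, where Mt1 passed, 0.11 over 12 genes. Of 3 tested genes of fetal and neonatal lymphocytes, 2 were positive and 1 negative, with a median of 0.27. Igf2bp3 was at 65.9 to 139 and 87.5 to 217 CPM, a change of 0.74 ± 0.20 (edgeR, adjusted p = 0.160). Ikzf2, also of this list, changed by -0.54 ± 0.18 (edgeR, adjusted p = 0.277). The sum of this list, scaled as for the hypoxia list, was 1148 to 1686 in control and 647 to 1479 in anemia. Of 3 thymocyte genes, with a median of -0.12, Tox changed by -0.50 ± 0.21 (edgeR, adjusted p = 0.408). Leaving out 1 mouse gave medians of 0.00 to 0.07 for the TCR list, -0.01 to 0.06 for cytokine receptors, -0.02 to 0.10 for homing receptors and -0.12 to 0.12 for MHC class I. The medians so obtained were 0.06 to 0.28 for iron, -0.31 to -0.12 for BCL2, -0.08 to 0.09 for cholesterol and -0.33 to -0.15 for immediate early genes. They were -0.05 to 0.19 for the glucocorticoid, 0.09 to 0.59 for the fetal and neonatal and -0.22 to -0.03 for the thymocyte list. Without anemia mouse 2, the median was 0.55 for the fetal and neonatal and -0.12 for the MHC class I list.

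**Figure D5:**
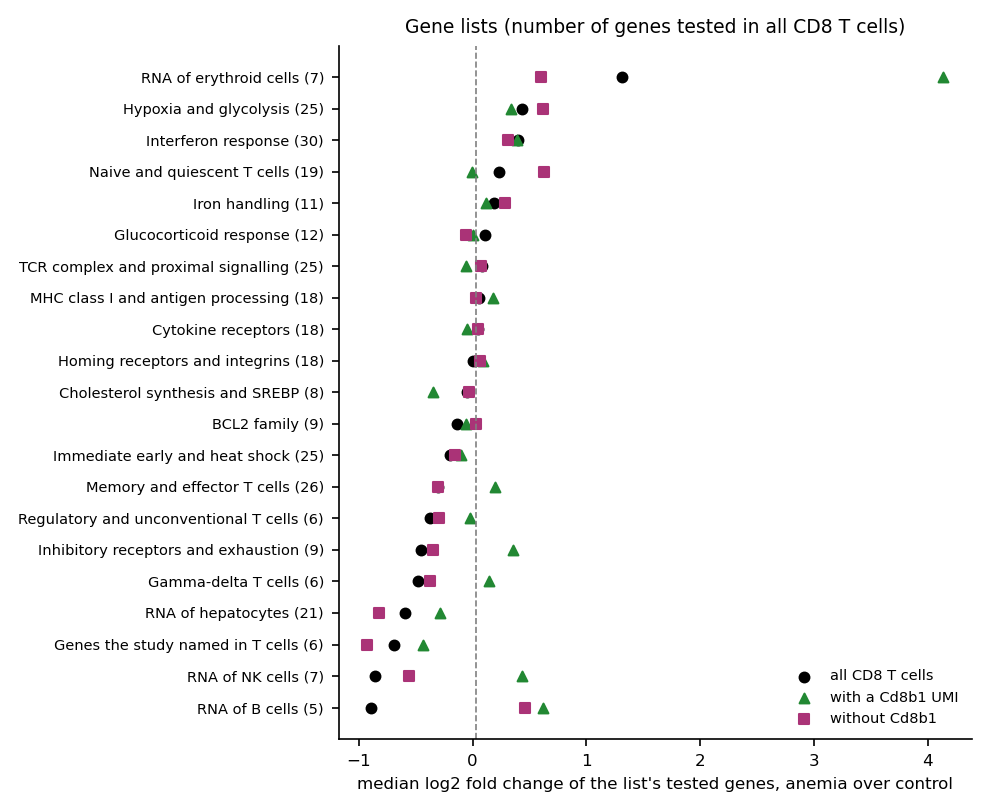
Median log2 fold change of the tested genes of 21 lists with at least 5 of them, in all members, in those with a Cd8b1 UMI and in those without, with a dashed line at the median of all tested genes (0.03). Naive genes lie at -0.01 with Cd8b1 and 0.62 without, and effector and NK genes lie above 0 with Cd8b1 and under it without. Each median is over the genes tested in that fit, so the sets differ between the kinds. With and without Cd8b1 these were 17 and 23 effector genes, 4 and 6 NK genes, and 2 and 4 gamma-delta genes.

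Transcripts of other liver cells are given beside these results. Of 21 hepatocyte genes 15 were negative, with a median of -0.60, and 3 passed (Cyp2e1 lower, Mt1 and Apoc3 higher). The median was -0.80 to -0.44 leaving out 1 mouse, -1.46 in members with lower hepatocyte RNA and -1.33 without the highest doublet scores. Members with lower hepatocyte RNA were those at or under their mouse's median for the share of UMIs from this same list. The list thus chose these cells, and its median in them is a description. Their sum was 5187 to 13672 UMIs per 1000000 in control members and 2949 to 9903 in anemic ones, and 7837 to 12500 and 1926 to 9213 in B cells. Lect2, a secreted hepatocyte protein, was at 15.5 to 81.3 and 3.93 to 24.6 CPM (-1.89 ± 0.42; edgeR, adjusted p = 0.0685), Apoe at 392 to 918 and 142 to 485 (-0.87 ± 0.24; adjusted p = 0.170) and Apoa1 at 519 to 1005 and 212 to 908 (-0.79 ± 0.25; adjusted p = 0.216). Serpina3k was at 0 to 14.4 CPM in control and 5.90 to 150 in anemia, with anemia mouse 3 at 150, a change of 2.87 ± 0.83 (edgeR, adjusted p = 0.184). Lect2, Apoe, Apoa1 and Serpina3k are among the 10 genes the study named for T cells on these samples, 6 of which were tested here, with a median of -0.69, and none of which passed. That median was -0.90 to -0.55 leaving out 1 mouse, -1.41 in the members so chosen for lower hepatocyte RNA and -1.38 without the highest doublet scores. Having been chosen on these samples, they are not independent evidence of a direction.

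None of the erythroid genes passed the threshold. Of 7 tested 6 were positive, with a median of 1.31 (1.02 or more leaving out 1 mouse), and their list summed to 1090 to 18063 UMIs per 1000000 in control members and 5549 to 39604 in anemic ones, with overlap. Hbb-bs changed by 1.32 ± 0.47 (edgeR, adjusted p = 0.300) in the members and by 1.85 ± 0.36 (edgeR, adjusted p = 0.0224) in B cells. Neutrophil, macrophage and B cell lists had 3, 3 and 5 genes tested, with medians of 0.59, -0.12 and -0.90 and none past the threshold. Leaving out 1 mouse, the neutrophil median was -0.01 (without anemia mouse 2) to 1.08 and the macrophage median -0.18 to 0.21, so that both turned. The B cell median was -1.06 to -0.24 leaving out 1 mouse, -0.09 without the highest doublet scores and 0.07 in members with lower hepatocyte RNA. Their sums were 57.0 to 369, 71.5 to 124 and 178 to 617 UMIs per 1000000 in control and 72.7 to 428, 53.9 to 117 and 123 to 816 in anemia, and C1qa, Cd79a and Siglech are at 0 by the rule. When the members with the highest doublet scores were left out, 39 genes passed and the median of the erythroid list was 0.63. The part of RNA from other cells in the changes of Cyp2e1, Mt1, Apoc3 and Gm10076 was not tested.

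Within members with Cd8b1, 15 of 5147 genes passed (0.291%), 13 higher (0.253%) and 2 lower (0.0389%), and 254 had an unadjusted p under 0.05 (4.93%). They included Hbb-bs and Hba-a1 at 4.22 and 4.04 (edgeR, adjusted p = 6.54e-09 and 1.42e-08), Mt1 at 2.67 (edgeR, adjusted p = 0.00299), Apoc3 at 2.08 (edgeR, adjusted p = 0.00350), and Cyp2e1 at -2.62 (edgeR, adjusted p = 0.00267). Alcam, an adhesion molecule, rose by 3.38 (edgeR, adjusted p = 0.0111) and Cd24a, a surface protein of immature blood cells, by 2.40 (edgeR, adjusted p = 0.0111). By list, the 15 held 6 erythroid genes, all of those tested there, 3 hepatocyte genes, 1 neutrophil gene and 1 thymocyte gene. The part of RNA from other cells was not tested, and single mice or doublets were not left out of this fit. Within members without Cd8b1, 1 of 4707 genes passed (0.0212%), Cyp2e1 at -3.53 (edgeR, adjusted p = 0.0180), and 394 had an unadjusted p under 0.05 (8.37%).

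The last comparisons asked whether the change in anemia differed between CD8 T cells and 2 other lymphocyte populations of the same livers, in one edgeR fit each with the mouse as a block. Against NK cells, 2 of 6260 genes passed (0.0319%), with 427 at an unadjusted p under 0.05 (6.82%). Farp1 changed by -1.24 in CD8 T cells and 0.19 in NK cells, a difference of -1.37 ± 0.24 (edgeR, adjusted p = 0.0246). S100a6, a calcium-binding protein gene of effector and innate lymphocytes, was at -0.98 in CD8 T cells, where it did not pass (edgeR, adjusted p = 0.103), and 0.07 in NK cells, a difference of -1.10 ± 0.21 (edgeR, adjusted p = 0.0390). Farp1 and S100a6 were higher in members without Cd8b1 than in those with it, by 2.54 and 2.77 on the log2 scale. The part of the mix of the 2 kinds of member in these differences was not tested. Klra9, Fasl and Hps4 differed by -1.995, -1.29 and -1.44, each with an adjusted p of 0.100 by edgeR. Mt1, Apoc3 and Gm10076 differed by 0.05, -0.06 and -0.07 (edgeR, adjusted p of 0.993 to 1.00). The count of 2 moved between 0 and 18 when 1 mouse was left out, with 0 without control mice 1 or 6 or anemia mouse 4, 1 without control mice 2 or 5 or anemia mouse 2, and 12, 18 and 5 without anemia mice 1, 3 and 5.

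Against CD4 T cells, of which each mouse gave 16 to 40, none of 2431 genes passed (0.0%) by edgeR, with 125 at an unadjusted p under 0.05 (5.14%). S100a6 differed by -1.34 ± 0.28 (edgeR, adjusted p = 0.0614), at -0.98 in CD8 T cells and 0.19 in CD4 T cells. Nr4a2 changed by -0.96 in CD8 T cells and -1.36 in CD4 T cells, a difference of 0.36 ± 0.32 (edgeR, adjusted p = 0.913). The CD4 T cells of a mouse summed to 34869 to 102304 UMIs. Leaving out 1 mouse gave 0 to 6 genes, with 3, 1, 2, 1 and 6 without control mice 1, 2, 3, 4 and 6 and 5 and 4 without anemia mice 1 and 3.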

How the data were processed

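The authors deposited raw UMI counts per gene and barcode for 12 libraries, 1 per mouse, made with Cell Ranger 7.0.0 per the file headers and build mm10 per the labels. Such counts are not normalised, and each mouse's value holds both animal and library variation. Barcodes were kept and gated as stated in the report, in Python 3.11.15 with scipy 1.17.1. Doublets were scored by comparing cells with simulated doublets (0.8% per 1000 cells) and were kept, except in a named alternative. Shares were compared over mice by exact two-sided Mann-Whitney tests with Benjamini-Hochberg adjustment, after cells were thinned to 1000 UMIs where stated. Of the 7 shares adjusted together, 1 is not reported here, and the Cd8b1-positive share, whose gene the rule used, is given as a description.

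UMIs were summed per mouse and tested with edgeR 4.0.16 (quasi-likelihood test, TMM scaling, mean of at least 5 UMIs, adjusted p under 0.05), with DESeq2 1.42.0 and limma 3.58.1 voom as alternatives. Ribosomal and mitochondrial genes were left out. Interaction fits held the mouse as a block. On simulated counts for the CD8 T cell comparison with 6704 genes, 58 of 100 genes changed by 1 on the log2 scale and 84 of 100 changed by 2 were recovered, with 7 calls among unchanged genes. Gene coordinates came from GENCODE M21, which matched 32235 of 32285 features (99.8%), and promoters from RefSeq (GRCm38.p6), which held both genes printed.

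The members and gene lists were chosen with earlier results of these data known. Genes named were those past the threshold of at least 20 CPM without overlap, those past it in a list (or the 2 most abundant of a list with none), the genes the study named for T cells, the markers, and those past the threshold in an interaction. B3galt5, Nr4a1, Nr4a3, Slfn1, Eno1, Ccl5, Gzma, Tyrobp, Alcam, Cd24a and genes that describe the kinds of member beyond the markers were named after their values were seen.

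Samples of the groups share replicate numbers, which no source says mark a litter or day. Deviations from the group means correlated at -0.0246 to 0.300 between mice of the same number, and only 2 of 6 pairs were over 0.1, so the numbers were not taken to pair the mice. Alternatives were other limits on mitochondrial, CD3, CD8 and globin UMIs, no thinning, doublets left out, other count filters and scaling, a sex covariate, subsets of members, the replicate block and leaving out each mouse. The split by Cd8b1, the fits within each sex, the gate on thinned cells and 4 measures of Cd8a and Cd8b1, genes of the rule, were added after the data had been seen, and the 4 measures are given as descriptions.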

Additional observations from a re-analysis of the deposited data

Results flagged for a closer look

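In 13 of 138 sets of 6 values tested (9.42%), 1 mouse lay farther from the others of its group than Dixon's 95% limit, where chance gives about 1 in 20. Anemia mouse 2 was high in the CD8 share of gated T cells, 39.6% with the next mouse at 27.7%, and in members with Cd8b1 as a share of kept cells, 0.815% with the next at 0.462%.

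Among control mice, mouse 5 was high in Apoc3 (105 CPM, next 51.5), mouse 2 in Mt1 (37.7 CPM, next 15.5) and mouse 6 in Trdc (389 CPM, next 271). Control mouse 3 was high in the immunoglobulin gene Ighm (325 CPM, next 172) and the early response gene Jund (2677 CPM, next 1982). Control mouse 4 was low in Cd160 (144 CPM, next 268) and high in the neutrophil gene S100a8 (186 CPM, next 67.2) and in Srebf2, a regulator of cholesterol synthesis (103 CPM, next 87.9). Among anemic mice, mouse 3 was high in Serpina3k (150.3 CPM, next 28.3), and mouse 4 was high in Ftl1 (1547 CPM, next 1307) and low in the MHC class I gene H2-K1 (827 CPM, next 1078).

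The effect of anemia differed between CD8 T cells and NK cells by -1.37 for Farp1 and -1.10 for S100a6 in edgeR's test of the interaction, with adjusted p of 0.0246 and 0.0390. Both genes were higher in members without Cd8b1, and the part of the mix of the 2 kinds of member was not tested.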

How the results depend on the processing

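The count of 10 changed genes was 157 with no filter on low counts, 4 with a mean of at least 20 UMIs, 45 with the sex covariate (5 higher and 40 lower), 5 with at least 2 CD8 UMIs, 39 without the highest doublet scores (3 higher and 36 lower), 1 in members with lower hepatocyte RNA, 1 outside the effector gate, 31 by DESeq2 and 15 by voom. Added after seeing the data, it was 1 in members without Cd8b1, 1 in males and 36 in females. Leaving out 1 mouse gave 2 to 40. Fewer mice or cells entered several of these fits, and the causes were not tested otherwise. The interaction count against CD4 T cells was 1 without TMM and 0 to 6 leaving out 1 mouse, and against NK cells 1 with at least 20 UMIs and 0 to 18.

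The difference in the CD8 share of kept cells was 0.00302 percentage points with at least 2 CD8 UMIs, the reverse of -0.128, which was -0.204 to -0.0823 leaving out 1 mouse. That in the CD8 share of non-erythroid cells, -0.00221, reversed to 0.000663 at 10% mitochondrial UMIs and 0.0771 with at least 2 CD8 UMIs, and was -0.0601 to 0.0521 leaving out 1 mouse. Leaving out 1 mouse gave 2.86 to 6.50 for the CD8 share of T cells and -17.6 to -12.2 for the effector share. The Cd8b1-positive share, a description, differed by 17.3 without thinning.

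With the replicate block, which the check did not support as a pairing, 65 genes passed, the 10 included. Over mice of the same number and with no test, the Cd8b1 share of CD8 UMIs differed by 11.9 and members without Cd8b1 by -0.205, and the Cd8b1-positive share after gating thinned cells by 12.1. No call on the tested shares changed under the block, but none had passed without it. The exact sign-flip test used there has a smallest p of 0.03125, so 1 share alone could not pass after adjustment over 7 shares. Of the medians of gene lists under all alternatives, 650 lay within 1 SD between mice of the list's mean log2 CPM (pooled over the groups) of the value in the report, and 44 did not.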
